A study of Homo sapiens with 6 samples.

Results

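BRACHYURY (BRA) binding in activin-treated endoderm progenitors was compared between 2 antibodies, supplied by R&D Systems and Santa Cruz. The members are all peaks of the 2 FLyA lists, 25864 from the R&D Systems antibody and 2436 from the Santa Cruz antibody, which make 28300 of the 54994 peaks in the 4 lists of the series. H9 cells, a human embryonic stem cell line in wide use, were held for 36 h with 20 ng/ml FGF2, 10 μM LY294002 (an inhibitor of phosphoinositide 3-kinase) and 100 ng/ml activin A, together called FLyA. In FLyB medium 10 ng/ml BMP4 took the place of activin A, FGF2 and LY294002 being the same, and those cells are labelled mesoderm progenitors. Each medium and antibody has 1 library, and every deposited peak is an interval of 400 bp with no height, so a peak could be compared by position only and no p-value was computed. A threshold of 1e-12 for the peak caller MACS stands in the header of each Santa Cruz list, whereas the R&D Systems lists have no header. The study describes its Santa Cruz libraries as poorer in unique reads and in signal relative to noise. It also reports that BRA binding correlated highly between the 2 antibodies in each medium. That is another measure than the overlap of peak lists, and it could not be computed from positions alone. Threshold, depth, signal-to-noise and antibody cannot be told apart in the recovery. No expression was measured in these samples, so the endoderm label could not be checked against marker genes. An R&D Systems FLyA peak is called recovered where a Santa Cruz FLyA peak overlaps it by at least 1 bp. All intervals given are exact (Clopper-Pearson) 95% intervals, or Newcombe's for differences. They cover counting error only, treat neighbouring peaks as independent and say nothing of variation between experiments.

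BRA, encoded by T, is a T-box transcription factor of the primitive streak, the structure through which cells leave the epiblast to form mesoderm and endoderm. Activin acts through the same receptors and SMAD2/3 effectors as Nodal, and drives streak cells towards the anterior streak and definitive endoderm, where EOMES, a second T-box factor, and the homeobox factor MIXL1 act ahead of FOXA2 and SOX17. In chromatin immunoprecipitation, an antibody enriches the DNA fragments its protein sits on, and antibodies raised against the same protein can differ in how much of it they pull down.

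Before the counts, the promoters of 4 genes show the kinds of site that were compared. Of the genes in the lists described below, 66 had a promoter in the RefSeq table used. Among these, 14 had an R&D Systems FLyA peak that overlapped the 250 bases before the gene start by any amount. Peak midpoints lay from -411 bp (KDR) to 182 bp (NODAL) from the start, so some peaks covered few of those bases. Of these 14 peaks, 7 had an R&D Systems FLyB peak, 3 had a Santa Cruz FLyB peak and 1, at MIXL1, had a Santa Cruz FLyA peak and so was recovered. Over all R&D Systems FLyA peaks these shares were 33.0%, 5.01% and 3.02%. The 4 printed here are MIXL1, for its recovered peak, CER1, whose promoter peak was met by the Santa Cruz antibody in FLyB only, JAG1, whose peak was in the R&D Systems FLyA list alone, and MESP2, the only one of the 14 with the T-box half-site AGGTGT or its reverse complement ACACCT. Sequences are from RefSeq (GRCh38.p14, MIXL1 at chr1:226223414-226223663, plus strand, CER1 at chr9:14722734-14722983, minus strand, JAG1 at chr20:10674000-10674249, minus strand, MESP2 at chr15:89776082-89776331, plus strand), whereas the peaks are on hg19. Which peaks overlap a promoter, and their distances from a gene start, rest on hg19 gene positions written from general knowledge, whose offsets to RefSeq differed between the gene ends by a median of 126 bp, so both are approximate at this scale. That difference compares gene lengths and would not show a gene shifted as a whole. Each sequence is written 5′ to 3′ along its gene and ends at the base before the start, with ACACCT or AGGTGT in capitals.
MIXL1: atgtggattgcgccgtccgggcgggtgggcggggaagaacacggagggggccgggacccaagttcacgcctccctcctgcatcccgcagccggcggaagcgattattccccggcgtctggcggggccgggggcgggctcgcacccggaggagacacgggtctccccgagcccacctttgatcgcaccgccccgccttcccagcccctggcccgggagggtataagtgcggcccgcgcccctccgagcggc
CER1: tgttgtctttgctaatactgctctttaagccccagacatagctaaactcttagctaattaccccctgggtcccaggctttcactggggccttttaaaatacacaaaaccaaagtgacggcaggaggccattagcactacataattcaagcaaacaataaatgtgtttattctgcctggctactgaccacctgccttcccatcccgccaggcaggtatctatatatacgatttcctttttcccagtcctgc
JAG1: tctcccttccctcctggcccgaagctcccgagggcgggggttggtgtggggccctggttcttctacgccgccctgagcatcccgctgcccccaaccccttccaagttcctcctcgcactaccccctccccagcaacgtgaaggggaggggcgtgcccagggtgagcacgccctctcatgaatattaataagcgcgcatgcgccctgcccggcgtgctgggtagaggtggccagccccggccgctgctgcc
MESP2: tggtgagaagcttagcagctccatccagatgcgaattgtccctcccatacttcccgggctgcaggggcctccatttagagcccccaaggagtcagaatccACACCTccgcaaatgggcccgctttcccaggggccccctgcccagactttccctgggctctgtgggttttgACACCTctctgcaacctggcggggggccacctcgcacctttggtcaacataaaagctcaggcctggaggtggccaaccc
The MIXL1 peak (chr1:226410988-226411387 on hg19) has its midpoint at -132 bp from the gene start, and the CER1 peak (chr9:14722655-14723054) at -139. The JAG1 peak (chr20:10654599-10654998) is centred at -104 and the MESP2 peak (chr15:90319299-90319698) at -91. MESP2 holds the half-site at 2 places and the other 3 sequences do not hold these letters. Across all 35116 promoters of the table, 9.57% hold AGGTGT or ACACCT in the same 250 bases. The letters are a match to a motif and not a measured site. In sequences centred on its peaks, the study found a motif resembling the T-box consensus in most FLyA peaks. Peak sequences were not searched here, so these promoter matches do not bear on that result.

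The Santa Cruz antibody recovered 781 of the 25864 R&D Systems FLyA peaks, or 3.02% (2.81 to 3.24%). The Santa Cruz list is short beside it, its 2436 peaks being 9.42% of the R&D Systems number, so that share bounds the recovery if each Santa Cruz peak meets 1 R&D Systems peak. Counted from the other side, 777 of the 2436 Santa Cruz peaks lay on an R&D Systems FLyA peak (31.9%), and 1659 did not. Overlapping peaks lay close together. The median distance between midpoints was 39.0 bp (quartiles 14 and 86 bp), and 446 of the recovered peaks (57.1%) were within 50 bp of the Santa Cruz midpoint. Unrecovered peaks were mostly far from any Santa Cruz peak, with 22209 of the 25083 (88.5%) over 50 kb away and 95 (0.379%) between 400 bp and 1 kb away.

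Whether a site was also bound in BMP4-treated cells went with a large difference in recovery. An R&D Systems FLyB peak overlapped 8544 of the R&D Systems FLyA peaks (33.0%), and of these the Santa Cruz antibody recovered 537 in FLyA, or 6.29% (5.78 to 6.82%). Of the 17320 FLyA peaks without a FLyB peak it recovered 244, or 1.41% (1.24 to 1.6%). The difference was 4.88 percentage points (4.35 to 5.44), a ratio of 4.46. Seen from the recovered sites, 68.8% had an R&D Systems FLyB peak, against 31.9% of the unrecovered sites. The R&D Systems FLyA and FLyB lists come from the same antibody, and 1 input library was made per medium. Which input each list was called against is not given in the sources used here, and the part of a shared input in these overlaps was not tested.

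Recovery also followed how exactly the FLyA and FLyB peaks of the R&D Systems antibody coincided. Where their midpoints were at most 25 bp apart, 247 of 3079 FLyA peaks were recovered (8.02%, 7.09 to 9.04%), and at 26 to 50 bp 6.08% were (5.10 to 7.18%). In the 3 classes from 51 bp to the end of the overlap, recovery lay between 4.74% and 5.07% with overlapping intervals. Beyond the overlap recovery was 2.05% at 400 bp to 1 kb (1.15 to 3.37%), and it stayed between 1.30% and 1.48% in the 3 classes farther out. In the class with the nearest FLyB peak over 50 kb away, 103 of 7381 sites were recovered (1.40%, 1.14 to 1.69%), and the intervals of all 4 classes without overlap shared values.

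**Figure D1:**
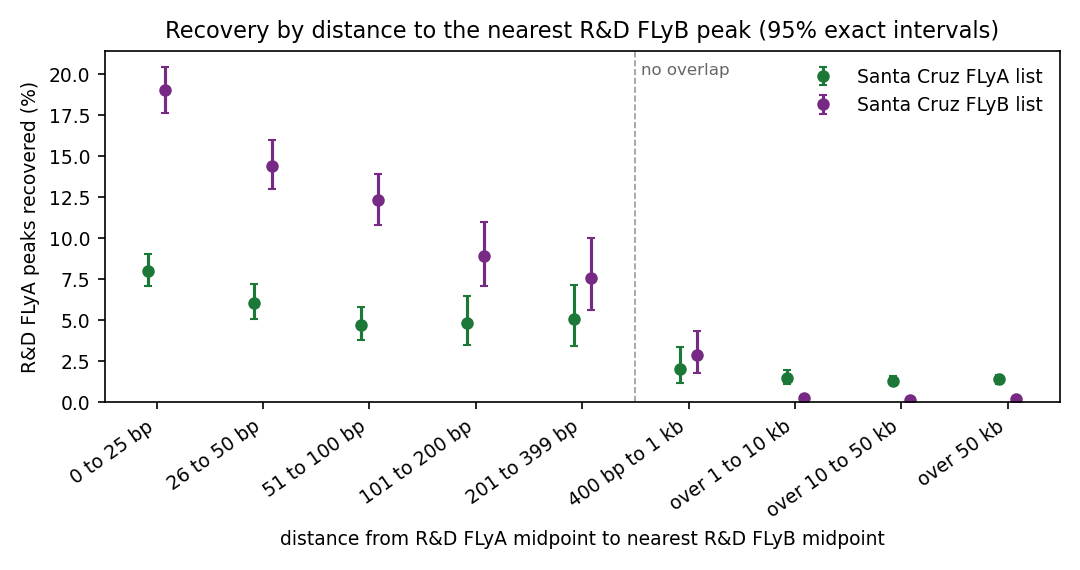
Share of R&D Systems FLyA peaks met by a Santa Cruz peak (%, vertical axis) against the distance from the FLyA midpoint to the nearest R&D Systems FLyB midpoint (classes, horizontal axis). Points are shares with exact 95% intervals for the Santa Cruz FLyA list (green) and the Santa Cruz FLyB list (purple), and the dashed line marks where peaks cease to overlap. Recovery in FLyA is 8.02% in the closest class and 1.40% beyond 50 kb.

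The Santa Cruz FLyB list gave a wider contrast on the same FLyA sites, in which both the split and the score come from the BMP4-treated cells. It holds 3007 peaks against the 2436 of the FLyA list, and it met 1296 of the R&D Systems FLyA peaks (5.01%) where the FLyA list met 781. With an R&D Systems FLyB peak the share was 14.6% (13.8 to 15.3%), and without one it was 0.30% (0.224 to 0.394%, 52 of 17320). FLyA sites without an R&D Systems FLyB peak were thus met by the Santa Cruz antibody more often in FLyA, with 244 peaks, than in FLyB, with 52. Of those 244, 4 were also met by the Santa Cruz antibody in FLyB (1.64%, 0.448 to 4.14%), against 48 of the 17076 unrecovered sites without an R&D Systems FLyB peak (0.281%, 0.207 to 0.373%). Of the 537 recovered sites with an R&D Systems FLyB peak, 222 (41.3%, 37.1 to 45.6%) also had a Santa Cruz FLyB peak, against 1022 of 8007 unrecovered ones (12.8%, 12 to 13.5%).

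By presence over the other 3 lists, 17028 of the R&D Systems FLyA peaks (65.8%) stood in that list alone and 6985 (27.0%) had an R&D Systems FLyB peak and nothing from the Santa Cruz antibody. Peaks present in all 4 lists numbered 222 (0.858%). Sites seen by both antibodies in FLyA and by neither in FLyB numbered 240 (0.928%). From the side of the Santa Cruz FLyA list, 1571 of its peaks (64.5%) met no other list. A further 88 met no R&D Systems FLyA peak but did meet at least 1 of the FLyB lists.

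Sites in dense stretches were recovered more often than lone ones. Density was counted as the number of other R&D Systems FLyA peaks with midpoints within 50 kb, and its median was 1. Of the 7666 peaks with no such neighbour, 166 were recovered (2.17%, 1.85 to 2.52%). Recovery was 2.69% (2.33 to 3.08%) with 1 neighbour, 3.12% (2.65 to 3.66%) with 2 and 4.0% (3.43 to 4.64%) with 3 to 4. Of the 1878 peaks with 5 or more neighbours, 101 were recovered (5.38%, 4.40 to 6.50%). Between the ends of this order the difference was 3.21 percentage points (2.22 to 4.37), while the intervals of adjacent classes overlapped. Its size depended on the window, being 8.53 points with 20 kb and 1.72 points with 100 kb in place of 50 kb.

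Dense sites also had a FLyB peak more often, so density was examined with and without one. The share of sites with an R&D Systems FLyB peak was 27.7% (26.7 to 28.7%) in the lone class and 45.2% (42.9 to 47.4%) in the densest. Among sites with a FLyB peak, recovery was 4.52% (3.68 to 5.50%) for lone sites and 9.32% (7.44 to 11.5%) with 5 or more neighbours, a difference of 4.79 points (2.77 to 7.08). Among sites without one the values were 1.26% (0.986 to 1.59%) and 2.14% (1.34 to 3.22%), and the difference of 0.873 points (0.0804 to 1.98) was small, with an interval that came close to 0. Within each of the 5 density classes the sites with a FLyB peak were recovered more often, by ratios of 3.58 to 4.78.

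**Figure D2:**
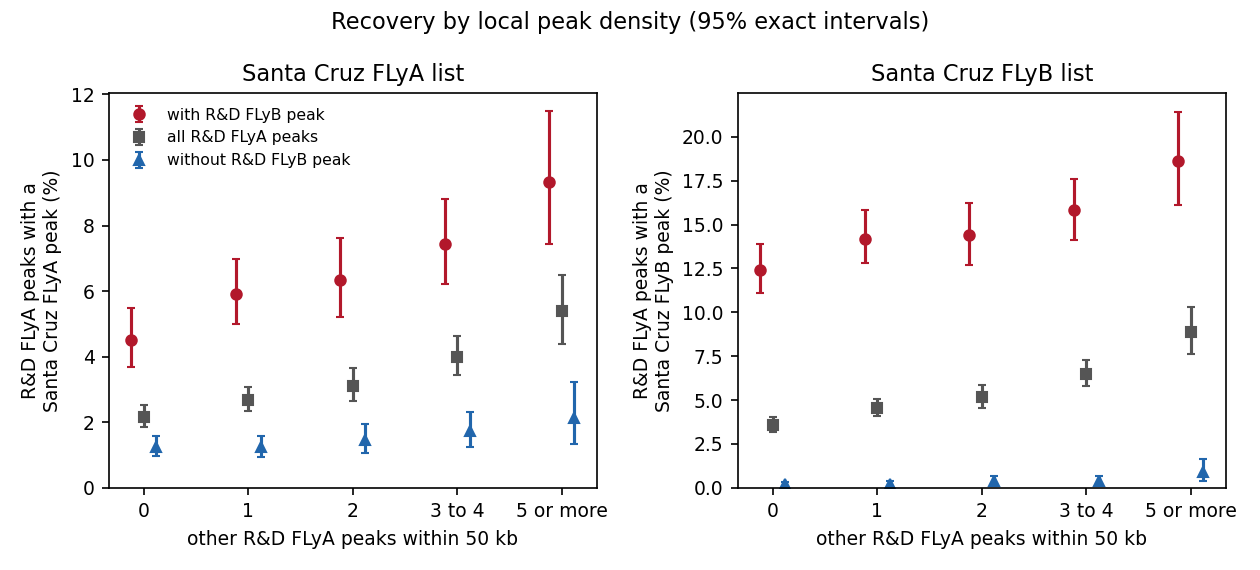
Share of R&D Systems FLyA peaks with a Santa Cruz peak (%, vertical axes) against the number of other R&D Systems FLyA peaks within 50 kb (horizontal axes), for the Santa Cruz FLyA list on the left and the Santa Cruz FLyB list on the right. Points are shares with exact 95% intervals for all sites (grey), sites with an R&D Systems FLyB peak (red) and sites without one (blue). In FLyA the red points go from 4.52% to 9.32% and the blue ones from 1.26% to 2.14%.

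Most recovered sites had no other recovered site nearby, but they had one more often than unrecovered sites did. Among R&D Systems FLyA peaks with at least 1 neighbour, 112 of the 615 recovered ones had another recovered peak within 50 kb (18.2%, 15.2 to 21.5%), against 1337 of the 17583 unrecovered ones (7.60%, 7.22 to 8.01%). Over all sites, lone ones included, recovered peaks also had more neighbours of any kind, a mean of 2.22 against 1.62. The part of this in the difference was not tested. Chaining peaks at most 50 kb apart gave 106 groups of 10 or more, of which 36 held a recovered peak (34.0%, 25 to 43.8%). The share of groups was 21.7% for those of 5 to 9 peaks and 2.17% for lone peaks. A larger group has more peaks that can be recovered, and the part of this was not tested. Counted by peak, 55 of 1321 were recovered in groups of 10 or more (4.16%), against 4.44% in groups of 5 to 9 and 3.02% over all sites. Most groups with any recovery held 1 recovered peak, which was so for 650 of them, and 53 held 2 or more. Lone peaks count as groups here, and 166 of the 650 were lone peaks, which can hold no more than 1.

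The groups with the most recovered peaks, named first here, were at a particular kind of place. The group at chr2:92272868-92323628 had 14 R&D Systems FLyA peaks, of which 9 were recovered and 8 were in all 4 lists, with a median distance of 2 bp between the midpoints of the 2 antibodies. At chr10:42374020-42400445, 6 of 7 were recovered, and at chr19:27731948-27740746, 5 of 5. Each lies next to the longest stretch of its chromosome without an R&D Systems peak, from chr2:92323631 to 95621420 in the first case. Of the groups with 4 recovered peaks, that at chr18:18511824-18520502, with 4 of 5, was beside such a stretch. The group at chr17:55775686-56084911, with 4 of 24 recovered, was not. Of the 41 groups with 2 recovered peaks, 3 were beside one. Over the 23 chromosomes for which such a stretch was taken, 65 of the 369 FLyA peaks within 1 Mb of it were recovered (17.6%, 13.9 to 21.9%), against 716 of 25495 elsewhere (2.81%, 2.61 to 3.02%). With an R&D Systems FLyB peak 58 of 152 were recovered there (38.2%). Without one 7 of 217 were (3.23%, 1.31 to 6.53%), an interval that overlaps the one elsewhere (1.22 to 1.57%). Recovery there varied by chromosome, with 11 of 19 on chromosome 10 and 0 of 22 on chromosome 22. The stretches differ in length, from 0.729 Mb on chromosome 22 to 27.7 Mb on chromosome 9, with 3.21 Mb on chromosome 10. The 2 antibodies placed those 65 peaks at a median of 5 bp from each other. The split by distance from the stretch was drawn after the values at chr2 were seen, and the 65 include the 9 of that group. What sets these peaks apart was not tested.

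Without those 369 peaks, the main contrasts were smaller and kept their direction. Recovery was 5.71% (5.22 to 6.23%) with a FLyB peak and 1.39% (1.22 to 1.57%) without one. It was 4.42% (3.52 to 5.46%) with 5 or more neighbours and 2.03% (1.73 to 2.37%) with none. A recovered neighbour within 50 kb stood beside 76 of 562 recovered sites (13.5%, 10.8 to 16.6%) and 7.42% of unrecovered ones (7.04 to 7.82%), counted among sites with any neighbour. The highest densities changed most. Sites with 10 or more neighbours were recovered in 12 of 83 cases (14.5%, 7.70 to 23.9%), but 9 of the 12 were at the chr2 group, and elsewhere 3 of 69 were recovered (4.35%, 0.906 to 12.2%). Those 3 were at 2 places, 2 of them at chr17:55908363-55979206 and 1 near FOXA2.

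**Figure D3:**
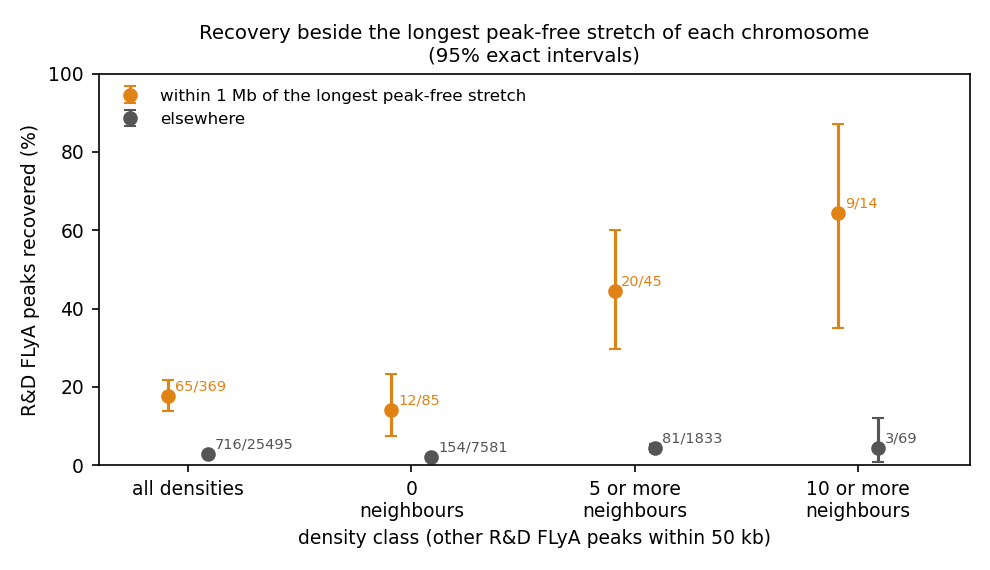
Share of R&D Systems FLyA peaks recovered by the Santa Cruz antibody in FLyA (%, vertical axis) by density class (horizontal axis), for peaks within 1 Mb of the longest peak-free stretch of a chromosome (orange) and all others (grey). Points are shares with exact 95% intervals, and recovered peaks over all peaks are written beside them. In the class of 10 or more neighbours the orange point is 9 of 14 and the grey one 3 of 69.

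Recovery was then read at loci of endoderm development, within 50 kb of either end of a gene. The hg19 gene positions were written from general knowledge, as no hg19 annotation was used here. For 98 of the 101 listed genes they were kept after a check that the offset to the GRCh38 RefSeq position was the same at both ends of the gene within 30 kb, which 76 met within 1 kb. The check in effect compares gene lengths, so a gene placed wrongly as a whole on the right chromosome would pass it. All counts near a gene and distances to a gene carry that uncertainty, while the peak positions are as deposited. Over 52 endoderm and anterior streak genes there were 225 R&D Systems FLyA peaks, of which 9 were recovered (4.0%, 1.85 to 7.46%), an interval that holds the 3.02% of all sites. These loci are dense, with a median of 5 neighbours a peak against 1 over all sites, and the 5.38% of sites with 5 or more neighbours lies in the interval too. Without RIPPLY1 and CYP26A1, described below, 9 of 219 were recovered (4.11%). Of the 9, 8 were among the 93 with an R&D Systems FLyB peak (8.60%, 3.79 to 16.2%) and 1 was among the 132 without. Over all sites the shares were 6.29% with a FLyB peak, which lies in that interval, and 1.41% without. The Santa Cruz FLyB list met 21 of the 225 (9.33%, 5.87 to 13.9%), against 5.01% of all sites and 8.89% of sites with 5 or more neighbours. An R&D Systems FLyB peak lay on 41.3% of the 225 sites and on 33.0% of all sites. At the comparison genes described last, the Santa Cruz FLyB list met 21 of 131 sites (16%, 10.2 to 23.5%, an interval that overlaps that of the endoderm lists), and 48.9% of the 131 had an R&D Systems FLyB peak.

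**Figure D4:**
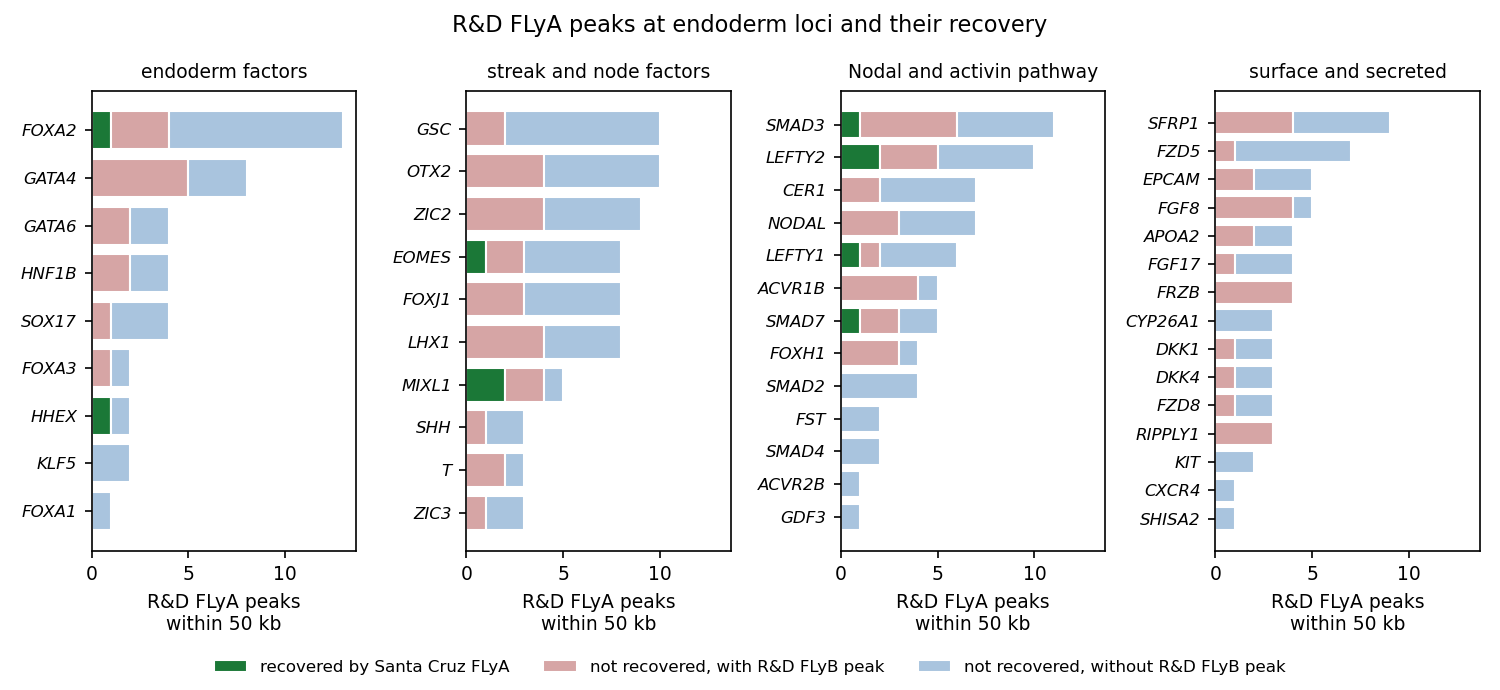
Number of R&D Systems FLyA peaks within 50 kb of each gene (horizontal axes) for the genes of 4 endoderm lists with at least 1 such peak (vertical axes). Green marks peaks recovered by the Santa Cruz antibody in FLyA, pink unrecovered peaks with an R&D Systems FLyB peak and blue unrecovered peaks without one, and a peak near 2 genes is drawn at both. MIXL1 and LEFTY2 have 2 recovered peaks each, and no gene of the surface and secreted list has any.

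Among 11 endoderm transcription factors, 40 R&D Systems FLyA peaks included 2 recovered ones (5.0%, 0.611 to 16.9%), an interval that holds the 3.02% of all sites. FOXA2, a forkhead factor of endoderm and node, had 13 peaks, the most of any gene listed, in a stretch where sites have up to 14 neighbours. Its 1 recovered peak (chr20:22559661-22560060) is 1.78 kb from the gene and has an R&D Systems FLyB peak. HHEX, a homeobox factor of anterior endoderm and liver bud, had 2 peaks, of which the one inside the gene (chr10:94452597-94452996) was recovered with midpoints 273 bp apart. HHEX had no FLyB peak from either antibody within 50 kb, so its recovered peak was seen by both antibodies in activin and by neither in BMP4. That call is lost where 200 bp of overlap is required. GATA4, a zinc finger factor of endoderm and heart, had 8 peaks of which none was recovered, although the Santa Cruz antibody met 2 of them in FLyB. At GATA6, a close relative, it met 2 of 4 peaks in FLyB and none in FLyA. SOX17, a defining endoderm factor, had 4 peaks and neither Santa Cruz list had a peak within 50 kb.

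Among 11 anterior streak and node genes, 3 of 67 peaks were recovered (4.48%, 0.933 to 12.5%). This interval holds both the 3.02% of all sites and the 5.38% of sites with 5 or more neighbours, and the median here is 7 neighbours. MIXL1 had 5 peaks and 2 were recovered, one at the promoter shown above with midpoints 25 bp apart and one 12.9 kb upstream (chr1:226398231-226398630) with midpoints 14 bp apart. The upstream site was present in all 4 lists. EOMES had 8 peaks, of which 1, 5.97 kb upstream (chr3:27769973-27770372), was recovered and was likewise in all 4 lists. The midpoints of the 2 antibodies there were 222 bp apart, so that EOMES had no recovered peak where 200 bp of overlap was required. Its promoter peak was in both R&D Systems lists only. GSC, a homeobox factor of the organizer, had 10 peaks and OTX2, of anterior endoderm and neuroectoderm, also had 10. Neither had a Santa Cruz peak in FLyA or FLyB within 50 kb. ZIC2 had 9 peaks and LHX1 and FOXJ1 had 8 each, all unrecovered (LHX1 had 1 recovered peak within 100 kb), and each of these 3 genes had a Santa Cruz FLyB peak on a FLyA site. T itself had 3 peaks, none recovered, and the Santa Cruz antibody met 1 of them in FLyB.

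**Figure D5:**
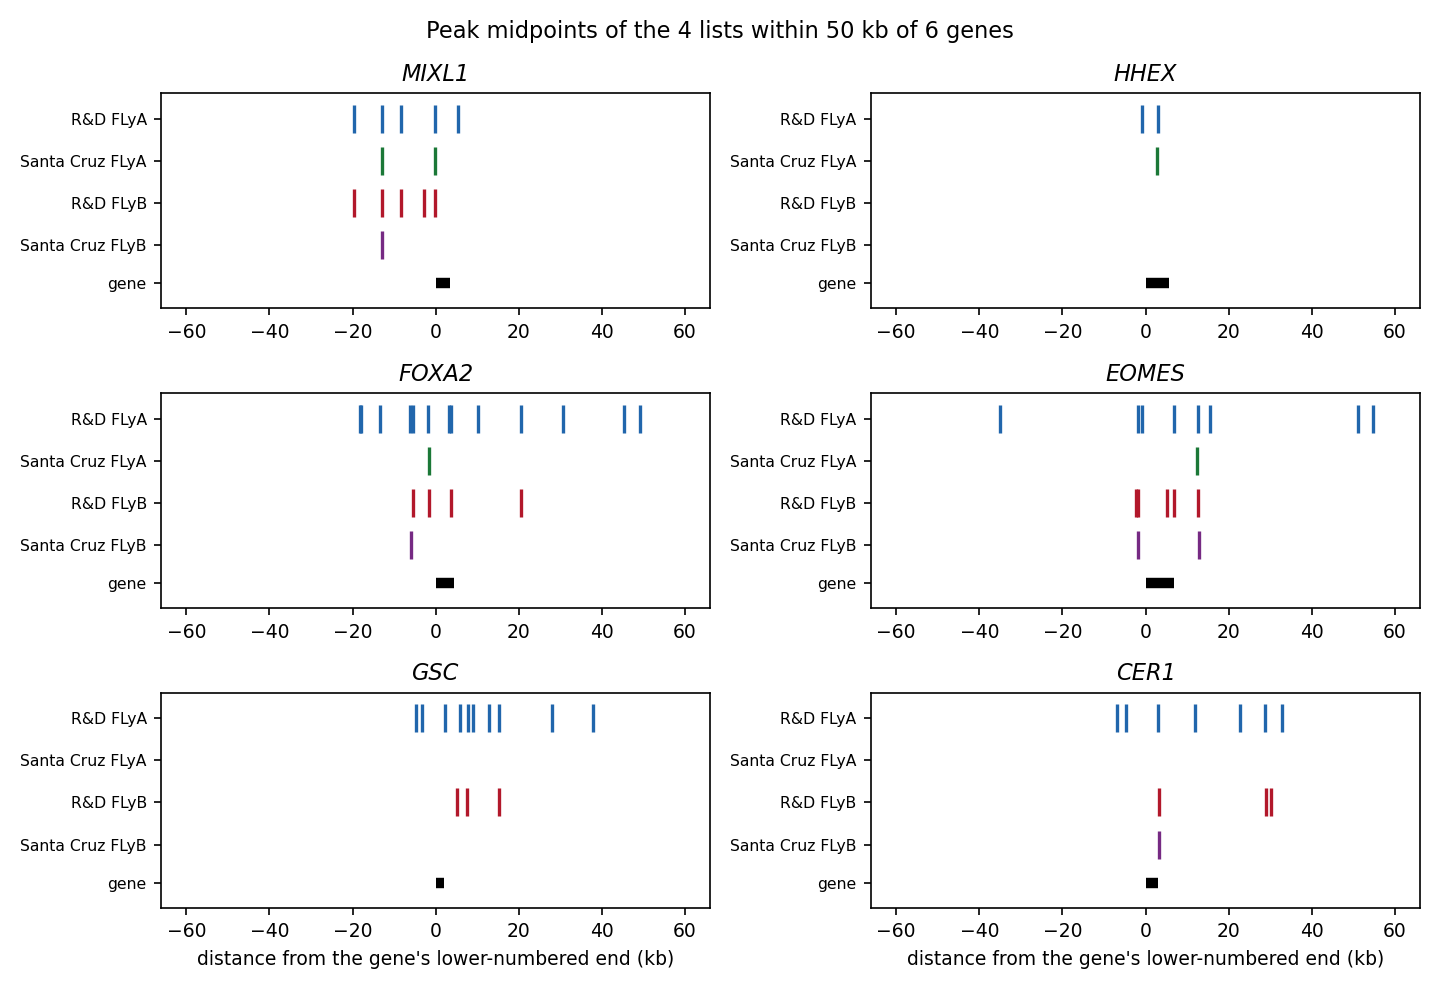
Midpoints of the peaks of the 4 lists (rows) around MIXL1, HHEX, FOXA2, EOMES, GSC and CER1, at their distance in kb from the lower-numbered end of the gene in chromosome order (horizontal axes), with the gene as a black bar. Santa Cruz FLyA peaks (green) stand at MIXL1, HHEX, FOXA2 and EOMES, and neither Santa Cruz list has a peak at GSC.

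In the Nodal and activin pathway, 4 of 61 peaks over 14 genes were recovered (6.56%, 1.82 to 15.9%), an interval that holds the 3.02% of all sites. All 4 had an R&D Systems FLyB peak, as did 68.8% of recovered sites genome-wide. LEFTY1 and LEFTY2, neighbouring genes for secreted Nodal inhibitors, had 6 and 10 peaks with 2 recovered between them. One (chr1:226087019-226087418) is within 50 kb of both genes but within 10 kb of neither, and the other (chr1:226136596-226136995), 7.71 kb from LEFTY2, was in all 4 lists with midpoints 1 bp apart. SMAD3, a transducer of activin signals, had 11 peaks with 1 recovered inside the gene (chr15:67378696-67379095). SMAD7, an inhibitory SMAD, had 5 with 1 recovered 9.30 kb upstream (chr18:46486178-46486577). NODAL and CER1, a ligand and its secreted antagonist, had 7 peaks each with none recovered, and the receptor gene ACVR1B had 5 with none.

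No peak was recovered near the 16 genes of the last list, of endoderm surface and secreted proteins. The list also holds RIPPLY1, a nuclear co-repressor needed for somite segmentation, and CYP26A1, an enzyme that degrades retinoic acid, and without them it has 51 peaks. Their 57 peaks allow a share of up to 6.27% by the exact interval, above the 3.02% of all sites, so a lower recovery than elsewhere could not be shown at this number. The WNT antagonist SFRP1 had 9 peaks, the WNT receptor FZD5 had 7, and the adhesion protein EPCAM and the growth factor FGF8 had 5 each. CXCR4, a chemokine receptor used to sort definitive endoderm, had 1. The Santa Cruz antibody met 3 of the 57 sites in FLyB, at FGF17, FRZB and RIPPLY1 (5.26%, 1.1 to 14.6%, against 5.01% of all sites).

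Of 4 genes that the study's text gives as examples of stronger binding in FLyA than in FLyB, HES5, a Notch effector, had 1 of its 3 peaks recovered (chr1:2478378-2478777). That peak was in both FLyB lists too, its midpoints were 341 bp apart, and the call is lost with 200 bp of overlap or within 10 kb of the gene. CDC6, FOXI1 and JAG1 had none recovered of 4, 3 and 4. In comparison lists of posterior streak and mesoderm, epithelial-mesenchymal transition and pluripotency genes, 8 of 131 peaks were recovered (6.11%, 2.67 to 11.7%), an interval that holds the 3.02% of all sites and overlaps that of the endoderm lists. AXIN2, a WNT feedback inhibitor, had 2 recovered peaks of 7, of which 1 was within 10 kb of the gene. MESP1 and MESP2, neighbouring mesoderm factors, shared 1 recovered peak (chr15:90291078-90291477), which is over 10 kb from MESP2. HOXB13, ZEB2 (lost with 200 bp of overlap), SOX2, PRDM14 and DNMT3B (lost within 10 kb of the gene) had 1 each, and HOXB13 had 2 where midpoints at most 1 kb apart counted.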

How the data were processed

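BRA ChIP-seq peak lists were compared by position. Per the submitters' processing notes, which list tools and builds without their role, Bowtie 0.12.7 was used with hg19, and per the methods peaks were called with MACS. The lists that the authors deposited hold a chromosome, a start and an end. Positions have no unit of signal, and the read depth behind a peak is unknown, and the study describes lower unique read counts for the Santa Cruz libraries. The intervals rest on numbers of peaks alone. Neither input library was analysed here. Samples were grouped by the labels' medium and antibody.

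Overlaps, densities and shares were computed with Python 3.11.15, NumPy 2.4.6, SciPy 1.17.1 and pandas 2.3.3, and overlap counts were compared with those of bedtools 2.31.1. For plots, matplotlib 3.10.9 was used. Peaks sharing 1 bp or more counted as shared, and 50 kb was the window for density and for genes. Functions were tested on simulated data. With 1 library per medium and antibody, no test across replicates was possible. Members and gene lists were chosen with earlier results of these data known.

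Gene positions on hg19 were typed from general knowledge and not read from a deposited or reference file. They were checked against GRCh38 RefSeq positions by the offset at both gene ends, with no conversion of coordinates. That check compares gene lengths and would not find a gene displaced as a whole. Genes were named where a peak within 50 kb was recovered, or where an endoderm list gene had 5 or more peaks and none was recovered. Other genes in the text were chosen after their values were seen. One gene of the lists is not reported here and is left out of the counts over lists. T-box motifs in the peaks and a ranking over all annotated genes need an hg19 genome and annotation and were not run. Motif matches were counted in GRCh38 promoters instead. The alternatives varied the overlap, windows, chromosomes, neighbours and the Santa Cruz list.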

Additional observations from a re-analysis of the deposited data

How the results depend on the processing

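The differences by FLyB presence and by density kept their direction under the alternatives run. The Santa Cruz FLyB list is no such check on the difference by FLyB presence, since it scores and splits the sites by the same medium. With at least 200 bp of overlap, the share of R&D Systems FLyA peaks recovered was 2.76% and the share of Santa Cruz FLyA peaks matched was 29.3%, and with midpoints at most 1 kb apart the first was 3.39%. With the Santa Cruz FLyB list in place of the FLyA list the recovered share was 5.01%, the difference by FLyB presence 14.3 points, the difference by density 5.31 points and the share at the endoderm lists 9.33%, and with both Santa Cruz lists joined the recovered share was 7.16%. Among peaks with no neighbour the difference by FLyB presence was 3.26 points. The difference by density was 8.53 points with a 20 kb window, 1.72 with 100 kb, 0.873 among peaks without an R&D Systems FLyB peak and 4.79 among those with one, where recovery at the endoderm lists was 8.60%. Leaving out peaks within 1 Mb of the longest peak-free stretch, chosen after seeing the data, gave 2.81% recovered, a difference of 4.32 points by FLyB presence and, with the 20 kb window, a difference by density of 4.17 points in place of 8.53. The cause of these shifts was not tested.

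Of 30 named genes, 12 changed their number of recovered peaks by over 1.5 times under at least 1 setting. With at least 200 bp of overlap, a choice added after seeing the data, EOMES, HHEX, HES5 and ZEB2 had no recovered peak. No paired analysis was possible because each group has replicate number 1 only and the lists hold positions without a value per peak. No replicate could be left out, with 1 library per medium and antibody. The T-box motif in peaks, with its alternatives, and the ranking over all annotated genes were not run. Without scores, a stricter peak threshold could not be tried, and a small list such as the 57 sites of the surface and secreted genes cannot show a recovery below that of all sites.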
